A study of Mus musculus with 4 samples.

Results

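Solute carriers are the largest group of membrane transporters, and they move amino acids, sugars, ions, metals, vitamins, nucleosides and metabolites across the plasma membrane and the membranes of organelles. Genes were taken as solute carriers where the platform symbol was Slc, a family number, the letter a and a member number. The array held 238 such genes among 12393 with a single symbol, and 158 of them had a mean log2 signal over the 4 arrays of at least 2.18, the limit that left out the lowest 25% of all genes. These 158 genes are described here, each by its probe set of highest mean, and the other 80 were too dim to describe. The limit fell between Slc13a3, with a mean of 2.19, and Slc26a1, with a mean of 2.17. Differences of the 80 dim genes ran from -0.29 for Slc10a2 to 0.48 for Slc7a2.

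The cells were C2C12, a mouse myoblast line that leaves the cell cycle for a reversible G0 arrest when it is held in viscous methyl cellulose without attachment. Expression was measured after 48 hours in suspension on 2 arrays of cells given purified Wnt3A at 50 ng/ml and on 2 arrays of control cells. Both groups were the same line, grown in Dulbecco's modified Eagle medium with fetal calf serum and arrested in the same way, and the protocol text of the controls names Wnt3A as well, so that the groups rest on the titles and the treatment label. The labels call the replicates biological without naming separate cultures, so the p-values measure the spread between these arrays only. Wnt3A is a secreted ligand that stabilises beta-catenin, which then acts with TCF/LEF factors on target genes. The comparison asks how the transporters of arrested myoblasts differed in cells kept with that ligand.

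Several solute carriers work only with a partner. The light chains of the Slc7 family that exchange amino acids, such as Slc7a5, Slc7a7 and Slc7a11, reach the cell surface bound to the heavy chain encoded by Slc3a2. Lactate transporters of the Slc16 family need a chaperone, basigin (Bsg) or embigin (Emb), and sodium-coupled carriers run on the gradient kept by the Na,K-ATPase. Many amino acid transporter genes carry a C/EBP-ATF response element, to which the stress factor ATF4 binds when amino acids are short. Muscle cells are known for insulin-regulated Slc2a4 (GLUT4), for lactate exchange and for the uptake of creatine, taurine and carnitine.

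The promoters of 4 amino acid transporter genes are shown because 2 of them, Slc7a11 and Slc7a7, had the widest differences of that class towards higher signal, Slc1a3 had the widest measured difference of all solute carriers, and Slc1a4 is the third gene of the class with the element. Each run is 250 bases before to 50 after a RefSeq start in GRCm38.p6, read 5′ to 3′ on the strand of the gene, and capitals mark matches to the response element core. The windows lie on the minus strand at chr3:50443564-50443863 for Slc7a11, chr14:54417895-54418194 for Slc7a7, chr11:20332664-20332963 for Slc1a4 and chr15:8710758-8711057 for Slc1a3.
Slc7a11: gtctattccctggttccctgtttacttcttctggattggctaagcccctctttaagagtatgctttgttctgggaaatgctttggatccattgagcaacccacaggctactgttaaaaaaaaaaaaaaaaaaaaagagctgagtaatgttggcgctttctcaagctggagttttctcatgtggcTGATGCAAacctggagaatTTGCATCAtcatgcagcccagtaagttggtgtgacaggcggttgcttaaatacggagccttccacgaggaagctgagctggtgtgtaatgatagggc
Slc7a7: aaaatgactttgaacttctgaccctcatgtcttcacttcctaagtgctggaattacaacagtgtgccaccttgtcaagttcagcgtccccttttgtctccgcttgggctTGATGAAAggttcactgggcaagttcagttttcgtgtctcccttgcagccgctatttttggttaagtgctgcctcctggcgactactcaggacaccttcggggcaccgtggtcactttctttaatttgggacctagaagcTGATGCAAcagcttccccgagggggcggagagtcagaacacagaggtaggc
Slc1a4: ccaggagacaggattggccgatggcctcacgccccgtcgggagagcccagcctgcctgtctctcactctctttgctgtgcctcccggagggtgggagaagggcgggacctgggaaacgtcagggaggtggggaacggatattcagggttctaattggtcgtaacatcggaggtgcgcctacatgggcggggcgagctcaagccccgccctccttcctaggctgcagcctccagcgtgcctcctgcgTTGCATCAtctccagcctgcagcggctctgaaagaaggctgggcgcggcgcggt
Slc1a3: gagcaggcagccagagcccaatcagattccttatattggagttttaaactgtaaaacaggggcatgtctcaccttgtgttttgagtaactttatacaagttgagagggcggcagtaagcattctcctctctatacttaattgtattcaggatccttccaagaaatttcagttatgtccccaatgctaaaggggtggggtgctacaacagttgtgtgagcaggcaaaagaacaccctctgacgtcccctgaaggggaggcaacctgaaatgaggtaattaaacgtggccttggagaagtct

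The core searched was TGATGNAA on both strands. It stood at -66 and, on the other strand, at -47 of Slc7a11, at -141 and -1 of the Slc7a7 window, and at -4 of Slc1a4, counted from the start site to the first base of the match. Of 5 windows of Slc7a7, 2 overlapping ones held the core and 3 did not. The printed Slc1a3 window held no match. Of the 158 described genes 119 had a window, and 4 of these held the core (3.36%), against 198 of 7501 tested genes with a window (2.64%). Of the 12 amino acid and peptide transporters with a window, 3 held it. The remaining solute carrier with the core was Slc50a1, at -189, which was lower with Wnt3A (-0.45). Of the 8 genes with a window that were at least 2-fold apart, 2 held it, Slc7a11 and Slc7a7. The 12 transporters had 20 windows, as did the 8 genes, against 9655 windows for the 7501 tested genes. More windows were thus searched per gene in these sets, so their counts of genes cannot be set directly against the share of tested genes. The TCF/LEF core CTTTGAT, searched the same way, lay in the windows of 7 of the 119 solute carriers (5.88%) and of 232 of the 7501 tested genes (3.09%), and in none of the 8 genes with a window that were at least 2-fold apart. A match is a description of these letters and not a bound site.

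No solute carrier passed an adjusted p of 0.05 by limma with Benjamini-Hochberg adjustment over 9295 tested genes, and neither did any other gene (0% of all tested genes). The lowest adjusted p was 0.202 among the solute carriers and 0.0796 among all genes. At an unadjusted p under 0.05 there were 12 solute carriers, 3 higher and 9 lower with Wnt3A (7.59%), against 5.68% of all tested genes. An exact permutation of 2 against 2 arrays cannot give a two-sided p under 0.333, so single genes are described by their size and by whether the arrays overlap. Signals were 83 higher and 75 lower with Wnt3A, with a median log2 difference of 0.02, against -0.02 over all tested genes. Scaling by the hybridization controls moved the median of all tested genes to 0.30, and 87.3% of the solute carriers were then higher in place of 52.5%, as were 83.5% of all tested genes in place of 47.0%.

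Arrays of the 2 groups did not overlap for 58 solute carriers, 29 higher and 29 lower with Wnt3A, which is 36.7% of them and close to the 34.4% of all tested genes (14.7% higher and 19.8% lower). Among these, 3 were at least 2-fold higher, which is 1.9% of the 158, against 1.54% of all tested genes. A further 6 were at least 2-fold lower, which is 3.8%, against 2.09% of all tested genes. The count of 2-fold higher genes depended on single arrays. Leaving out Wnt3A replicate 1 gave 18 such genes, when 5.15% of all tested genes qualified, and leaving out control replicate 2 gave 8, when 3.56% did. At an unadjusted p under 0.05 there were 26 solute carriers with the first of these arrays left out, when 14.4% of all tested genes passed, and 7 with the other left out, when 2.94% did. Of the 158 genes, 9 had a mean under the limit of 2.18 in 1 of the 2 groups and passed only through the other. For 127 of the 158 genes the difference between the groups was smaller than the wider of the gaps between 2 replicates. This was not counted over all tested genes, so it cannot be read as particular to the solute carriers.

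**Figure D1:**
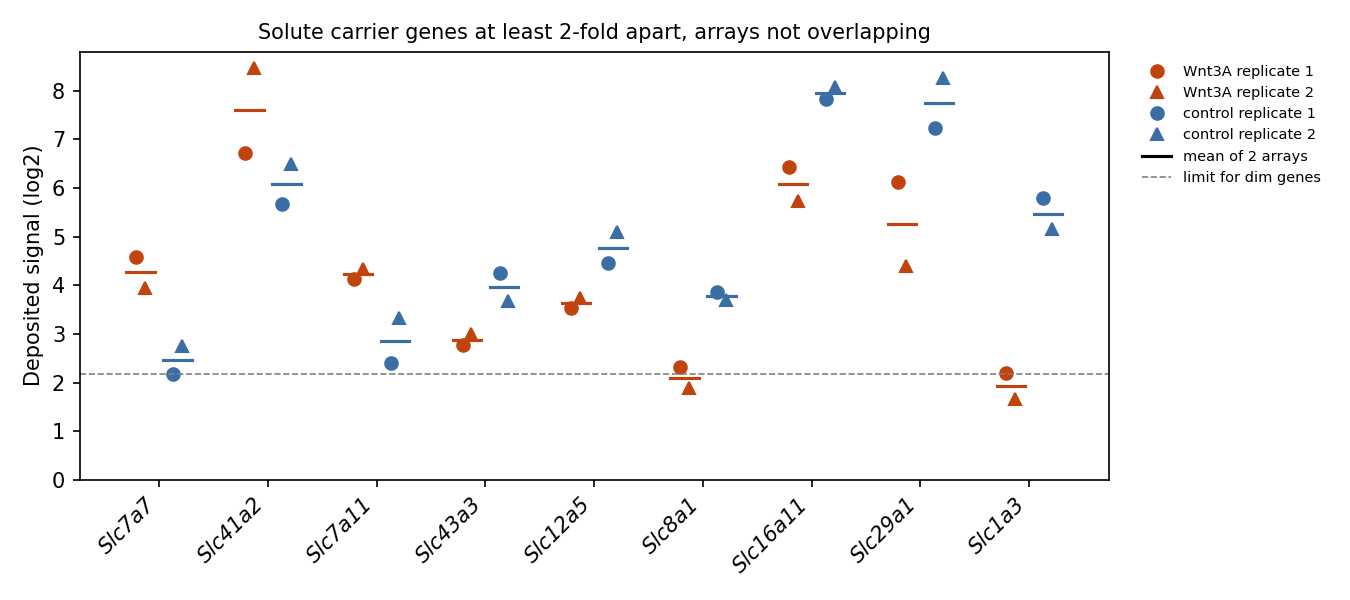
Deposited log2 signal (vertical axis) of the 9 solute carrier genes at least 2-fold apart whose arrays did not overlap, Wnt3A in orange left of control in blue, circles for replicate 1 and triangles for replicate 2, bars for the mean of 2 arrays, dashed line for the limit of 2.18. Slc1a3 and Slc8a1 have Wnt3A means under the limit, and Slc41a2 and Slc29a1 have Wnt3A replicates more than 1 log2 unit apart.

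The arrays correlated at 0.936 to 0.978 over the 9295 tested genes, and their median signals over all 22690 probe sets lay between 4.15 and 4.22. All 7 myoblast markers were above the limit, 4 higher and 3 lower with Wnt3A. Myod1 had 6.32 and 3.62 with Wnt3A, against 6.84 and 7.11 in controls, and Myf5 had 7.77 and 7.65 with Wnt3A, against 6.57 and 5.98 in controls. The 8 markers of differentiated muscle were all lower with Wnt3A on non-overlapping arrays, as were 19.8% of all tested genes. Their summed linear signals were 2799 and 2565, against 3826 and 8476 in controls. Of 7 adipocyte markers 5 were on the array and 4 above the limit, all lower, while Adipoq was under the limit in all 4 arrays. Sums of this list were 168 and 60, against 2387 and 526 in controls. Most of each control sum was Lpl alone, which had 6.54 and 4.92 with Wnt3A, against 11.10 and 8.70 in controls. Ptprc, Pecam1 and Epcam, which define leukocytes, endothelium and epithelium, were under the limit on every array. Other genes of those lists were above it: Csf1r had 3.53 and 5.19 with Wnt3A, against 3.26 and 3.39 in controls, and Krt19 had 3.27 and 5.61 with Wnt3A, against 2.57 and 4.39 in controls. Of the leukocyte list 3 of 6 genes were tested, of the endothelial list 2 of 5, of the epithelial list 2 of 5 and of the neuronal and glial list 1 of 5 on the array, Mbp at -0.79. Arrays did not overlap for Csf1r (1.03), the macrophage marker Cd68 (0.28), Mbp, the endothelial genes Cldn5 (0.20) and Kdr (-0.26) and the epithelial gene Krt8 (-0.41). Those of Krt19 overlapped. Of all tested genes, 34.4% had arrays that did not overlap, so single markers that did so are not set apart by it. Summed signals were 34 and 62 against 34 and 32 in controls for the leukocyte list, and 24 and 62 against 21 and 36 in controls for the epithelial list. They were 19 and 19 against 20 and 19 in controls for the endothelial list, and 18 and 18 against 21 and 25 in controls for neuronal and glial markers. The part of these marker lists in the transporter differences was not tested. In these bulk arrays fewer cells of a type and less RNA per cell cannot be told apart.

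Amino acid and peptide transporters were the class with the widest differences in both directions. Of 21 described genes (40 on the array), 14 had a higher and 7 a lower mean with Wnt3A (median 0.11). Arrays did not overlap for 5 higher and 3 lower genes, 38.1% of the class and close to the 34.4% of all tested genes. Slc1a3 encodes GLAST, a sodium-coupled glutamate and aspartate transporter best known from astrocytes. Its log2 signals were 2.19 and 1.66 with Wnt3A, against 5.79 and 5.15 in controls. Both Wnt3A arrays were near or under the limit for dim genes while both controls stood well over it. The Wnt3A mean of 1.92 was under the limit and the control mean was 5.47, so the gene was described only through its controls. With each Wnt3A array set no lower than the limit, the signal was at least 9.77-fold lower. The measured difference was -3.55 (limma adjusted p = 0.202), and its 2 other probe sets differed by -3.40 and -1.07.

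Slc7a7 and Slc7a11, both light chains of heteromeric exchangers, were higher with Wnt3A. Slc7a7 (y+LAT1), which exports cationic amino acids in exchange for neutral ones, had 4.59 and 3.94 with Wnt3A, against 2.18 and 2.76 in controls. The gap between the groups exceeded the gap within either, with a difference of 1.79 (SE 0.33, interval 0.93 to 2.66, adjusted p = 0.482). Slc7a11 (xCT), which imports cystine in exchange for glutamate and so feeds glutathione synthesis, had 4.13 and 4.33 with Wnt3A, against 2.40 and 3.33 in controls. Its difference was 1.37 (SE 0.36, interval 0.44 to 2.30, adjusted p = 0.658), and it was 0.91 without control replicate 1.

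The shared heavy chain Slc3a2 did not separate the groups: it had 7.98 and 9.54 with Wnt3A, against 8.20 and 8.92 in controls, a difference of 0.20 (SE 0.59). Slc7a5 (LAT1), the light chain for large neutral amino acids, had 6.20 and 8.52 with Wnt3A, against 5.97 and 8.02 in controls. In both groups replicate 2 was over 2 log2 units above replicate 1, so the difference of 0.36 had an SE of 1.03. The cationic amino acid transporter Slc7a3 had the same pattern, with 2.70 and 4.30 against 2.29 and 4.05 in controls. All 6 described Slc7 genes had a higher mean, with a median of 0.35, but Slc7a6 was lower with the probe sets of a gene averaged. Leaving out 1 replicate turned 4 of the 6 lower, with lowest differences of -0.56 for Slc7a3, -0.10 for Slc7a4, -0.79 for Slc7a5 and -0.10 for Slc7a6. Slc7a4 (0.20) and Slc7a6 (0.05) differed by less than their standard errors of 0.29 and 0.22.

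Among the neutral amino acid transporters, Slc1a5 (ASCT2), a glutamine carrier, had 2.99 and 2.99 with Wnt3A, against 3.52 and 3.37 in controls, a difference of -0.46 (SE 0.17, adjusted p = 0.878). Slc1a4 (ASCT1), its relative for serine, alanine and cysteine, had 6.35 and 7.63 with Wnt3A, against 6.20 and 6.83 in controls. These overlapped, with a difference of 0.48 (SE 0.50). Slc38a2 (SNAT2), the amino acid-regulated system A carrier, varied little, at 10.21 and 10.24 with Wnt3A, against 10.11 and 10.12 in controls. Non-overlapping arrays were also seen for lysosomal carriers of this class, the peptide and histidine transporters Slc15a3 at -0.63 (SE 0.22) and Slc15a4 at 0.45 (SE 0.24), and the cationic amino acid exporter Slc66a1 at 0.35 (SE 0.26).

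**Figure D2:**
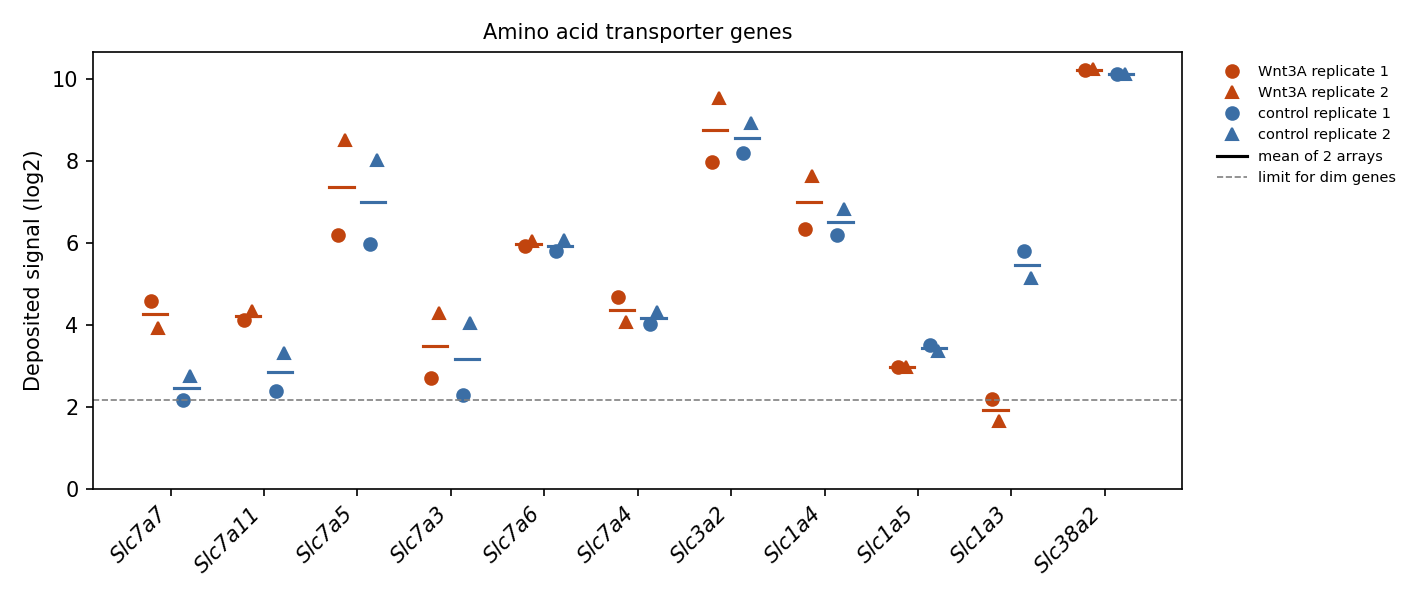
Deposited log2 signal (vertical axis) of 11 amino acid transporter genes, Wnt3A in orange left of control in blue, circles for replicate 1 and triangles for replicate 2, bars for the mean of 2 arrays, dashed line for the limit of 2.18. Slc7a5 and Slc7a3 have replicate 2 far above replicate 1 in both groups, while Slc1a3 separates by group.

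The 3 described nucleoside and nucleobase carriers (6 on the array) were all lower with Wnt3A on non-overlapping arrays, as were 19.8% of all tested genes. Slc29a3 was higher by 0.03 under hybridization control scaling. Slc29a1 (ENT1), the main equilibrative nucleoside transporter of the plasma membrane, had 6.12 and 4.39 with Wnt3A, against 7.24 and 8.25 in controls. Its difference of -2.50 (SE 0.68, interval -4.28 to -0.71, adjusted p = 0.697) was uncertain in size because the Wnt3A arrays lay 1.73 apart and the controls 1.01, and it was -1.63 without Wnt3A replicate 2. Slc43a3, a purine nucleobase carrier, had 2.77 and 2.99 with Wnt3A, against 4.25 and 3.67 in controls, a difference of -1.08 (SE 0.26, adjusted p = 0.648). It was under 2-fold under hybridization control scaling (-0.76), without control replicate 1 (-0.79) and without Wnt3A replicate 1 (-0.97). The lysosomal carrier Slc29a3 (ENT3) differed by -0.29 (SE 0.23).

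Inorganic ion transporters (19 described of 37) had a median of -0.02, with 9 higher and 10 lower. Slc8a1 (NCX1) is the sodium/calcium exchanger that extrudes calcium from muscle cells. It had 2.31 and 1.89 with Wnt3A, against 3.86 and 3.69 in controls, and its Wnt3A mean of 2.10 was under the limit, so that it too was described only through its controls. With each Wnt3A array set no lower than the limit, its signal was at least 2.88-fold lower. The measured difference of -1.67 (adjusted p = 0.325) was -0.67 with its probe sets averaged. Slc12a5 (KCC2), a potassium-chloride cotransporter known from neurons, had 3.52 and 3.74 with Wnt3A, against 4.46 and 5.09 in controls, a difference of -1.14 (SE 0.29, adjusted p = 0.658). It was no longer 2-fold apart with probe sets averaged (-0.58), without control replicate 2 (-0.82) or under hybridization control scaling (-0.82).

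The other described Slc12 genes differed by less than their standard errors, among them the potassium-chloride cotransporters Slc12a4 (-0.27, SE 0.31) and Slc12a7 (-0.16, SE 0.32) and the sodium-potassium-chloride cotransporter Slc12a2 (-0.20, SE 0.34). All 5 Slc12 genes were lower, with a median of -0.20, but 4 of 5 were higher under hybridization control scaling. The chloride-bicarbonate exchanger Slc4a3 (AE3) had 3.54 and 3.79 with Wnt3A, against 3.92 and 5.16 in controls. Its difference of -0.88 (SE 0.45) came mostly from control replicate 2. The phosphate importer Slc20a1 (PiT-1) had 9.30 and 9.35 with Wnt3A, against 8.35 and 9.09 in controls, a difference of 0.60 (SE 0.30).

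**Figure D3:**
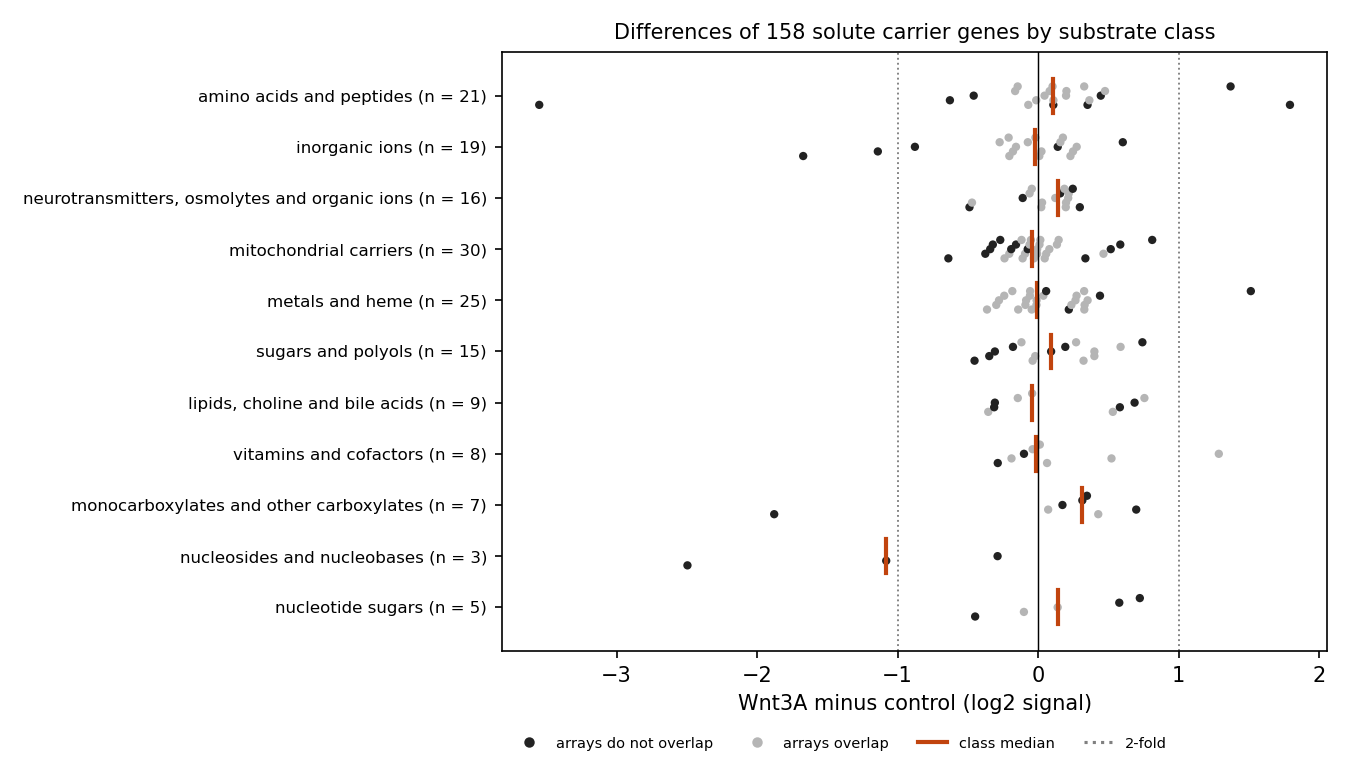
Log2 difference, Wnt3A minus control (horizontal axis), of 158 solute carrier genes by substrate class (rows), black where the 2 groups' arrays did not overlap and grey where they did, orange bars for class medians and dotted lines for 2-fold. Most points lie between the dotted lines, and the widest measured differences are Slc1a3 at -3.55, Slc29a1 at -2.50 and Slc16a11 at -1.88.

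Monocarboxylate and other carboxylate carriers (7 described of 11) had a median of 0.31, with 6 higher and 1 lower. The median was 0.13 without Wnt3A replicate 2. It was -0.73 with the dimmer 50% of all genes left out, when only Slc16a1 and Slc16a11 of the class remained. Slc16a11 (MCT11), a monocarboxylate carrier, had 6.42 and 5.74 with Wnt3A, against 7.83 and 8.09 in controls. The groups lay far apart relative to their replicates, with a difference of -1.88 (SE 0.30, interval -2.67 to -1.08, adjusted p = 0.412). The lactate importer Slc16a1 (MCT1) had 9.22 and 10.38 with Wnt3A, against 9.26 and 9.48 in controls. These overlapped, with a difference of 0.43 (SE 0.42). The lactate exporter Slc16a3 (MCT4) had 2.68 and 3.38 with Wnt3A, against 2.57 and 2.10 in controls, a difference of 0.70 (SE 0.31). The dimmer Slc16a4 had 2.41 and 2.32 with Wnt3A, against 2.05 and 1.99 in controls, whose mean was under the limit.

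Of the chaperones of these carriers, Emb separated the groups and Bsg did not. Emb had 7.92 and 7.55 with Wnt3A, against 9.46 and 9.19 in controls, a difference of -1.59 (SE 0.23, adjusted p = 0.333). Bsg overlapped, with 9.87 and 11.05 with Wnt3A, against 10.12 and 9.96 in controls, a difference of 0.42 (SE 0.42) that was -0.17 without Wnt3A replicate 2. Atp1b1, a beta subunit of the Na,K-ATPase, had 5.18 and 4.62 with Wnt3A, against 6.64 and 6.91 in controls, a difference of -1.88 (SE 0.29, adjusted p = 0.367). Of 27 listed genes for transporter partners and driving force, 21 were on the array and 20 tested, with a median of 0.16, 14 of them higher and 6 lower. The scaffold Slc9a3r1 (NHERF1) differed by -0.72 (SE 0.33) and Stk39, a kinase that activates Slc12a2, by 0.60 (SE 0.31), both on non-overlapping arrays. Of the 20 tested genes, 2 were higher and 3 lower on non-overlapping arrays, 25% of them, against 34.4% of all tested genes.

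Sugar and polyol transporters (15 described of 20) had a median of 0.09, with 8 higher and 7 lower. Slc2a1 (GLUT1), which supplies basal glucose uptake, had 10.88 and 12.07 with Wnt3A, against 11.15 and 11.00 in controls. The controls lay between the Wnt3A arrays, and the difference of 0.40 had an SE of 0.42. Slc2a3 (GLUT3), a high-affinity glucose transporter, had 9.64 and 10.34 with Wnt3A, against 8.85 and 9.63 in controls, with the lower Wnt3A array level with the higher control. Its difference was 0.74 (SE 0.38), and its 2 other probe sets above the limit differed by 0.72 and 0.59. The insulin-regulated Slc2a4 (GLUT4) had 3.18 and 3.27 with Wnt3A, against 3.26 and 3.26 in controls. Slc50a1 (SWEET1) differed by -0.45 (SE 0.23) and the glucose-phosphate antiporter Slc37a2 by -0.35 (SE 0.26).

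**Figure D4:**
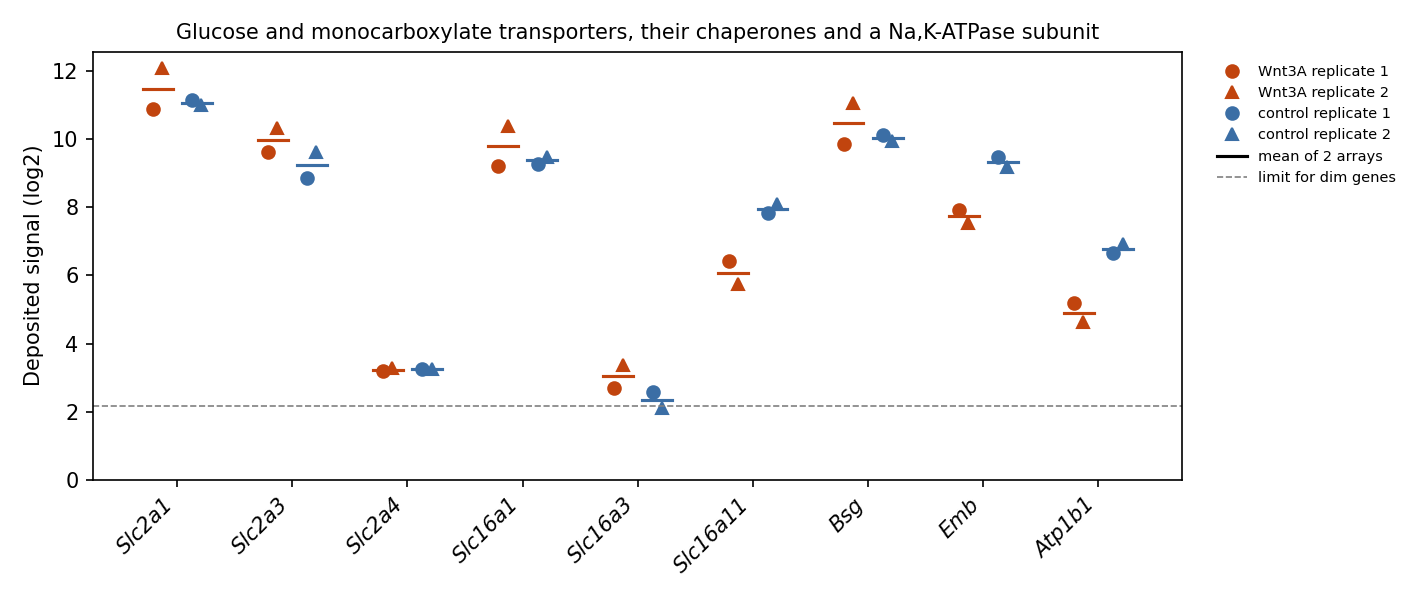
Deposited log2 signal (vertical axis) of glucose and monocarboxylate transporters, the chaperones Bsg and Emb and the Na,K-ATPase subunit Atp1b1, Wnt3A in orange left of control in blue, circles for replicate 1 and triangles for replicate 2, bars for the mean of 2 arrays, dashed line for the limit of 2.18. Slc16a11, Emb and Atp1b1 have both Wnt3A arrays below both controls, and Slc2a1, Slc16a1 and Bsg have 1 high Wnt3A array, replicate 2.

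Metal and heme carriers (25 described of 27) had a median of -0.01, and 4 had non-overlapping arrays (16%, against 34.4% of all tested genes). All 4 were higher with Wnt3A, so that 16% of the class was higher on non-overlapping arrays, close to the 14.7% of all tested genes. Slc41a2, a magnesium transporter, had 6.72 and 8.47 with Wnt3A, against 5.66 and 6.50 in controls. Replicate 2 was the higher array in both groups, and the difference of 1.51 (SE 0.66, interval -0.22 to 3.24, adjusted p = 0.917) has an interval that includes 0. It was 0.64 without Wnt3A replicate 2, which ends its 2-fold separation, and 2.39 without Wnt3A replicate 1. The Golgi zinc transporter Slc30a5 differed by 0.44 (SE 0.21) and the copper carrier Slc31a2 by 0.22 (SE 0.22). None of the 9 described Slc39 zinc importers had non-overlapping arrays (0%, against 34.4% of all tested genes), Slc39a6 at 0.35 (SE 0.33) and Slc39a14 at -0.14 (SE 0.34) included. The iron exporter ferroportin, Slc40a1, had 8.25 and 6.08 with Wnt3A, against 7.99 and 6.90 in controls, with replicate 1 high in both groups. The iron importer Slc11a2 (DMT1) differed by 0.33 (SE 0.28), and its other probe sets by -0.31 and 0.07.

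Mitochondrial carriers of the Slc25 family (30 described of 33) had a median of -0.04, with 12 higher and 18 lower, but 26 of 30 were higher under hybridization control scaling. Slc25a29, a basic amino acid carrier, had 6.50 and 7.37 with Wnt3A, against 5.92 and 6.33 in controls, a difference of 0.81 (SE 0.37), and its 5 probe sets differed by 0.53 to 0.96. Slc25a24, the calcium-regulated ATP-Mg/phosphate carrier, differed by 0.58 (SE 0.21, adjusted p = 0.867). Slc25a17, a family member of the peroxisome, differed by -0.64 (SE 0.24, adjusted p = 0.878). Slc25a4 (ANT1), the main ADP/ATP exchanger of muscle, had 10.77 and 10.27 with Wnt3A, against 10.65 and 10.86 in controls, and overlapped. Arrays did not overlap for 4 higher and 8 lower genes of the class, 40% of it against 34.4% of all tested genes. The other higher ones were the pyrimidine nucleotide carrier Slc25a33 (0.52, SE 0.30) and the outer membrane protein Slc25a46 (0.34, SE 0.19). The other lower ones ran from -0.38 (SE 0.20) for the NAD carrier Slc25a51 to -0.07 (SE 0.20) for the glycine carrier Slc25a38.

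Carriers of neurotransmitters, osmolytes and organic ions (16 described of 33) had no gene beyond a difference of 0.49 in either direction. The creatine transporter Slc6a8 had 8.15 and 8.49 with Wnt3A, against 7.96 and 8.08 in controls, a difference of 0.30 (SE 0.21), and 0.73 on its other probe set. The taurine transporter Slc6a6 (0.21, SE 0.28) and the carnitine transporters Slc22a5 (0.12, SE 0.28) and Slc22a21 (0.25, SE 0.19) differed by less than 0.3. Slc22a17, a receptor for lipocalin 2, differed by -0.49 (SE 0.23).

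Vitamin and cofactor carriers (8 described of 11) held a wide difference that did not separate the groups. Slc23a2 (SVCT2), the ascorbate transporter of most tissues, had 6.87 and 8.68 with Wnt3A, against 6.0 and 6.98 in controls, a difference of 1.29 (SE 0.70). One control array exceeded the lower Wnt3A array, and the difference was 0.66 with probe sets averaged, 0.38 without Wnt3A replicate 2 and 2.19 without Wnt3A replicate 1. Slc23a1, its relative of epithelia, differed by -0.10 (SE 0.15) and the folate transporter Slc46a1 by -0.29 (SE 0.18), both higher under hybridization control scaling.

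Lipid and choline carriers (9 described of 15) included Slc33a1, which brings acetyl-CoA into the endoplasmic reticulum, with 6.94 and 7.20 with Wnt3A, against 6.79 and 5.97 in controls, a difference of 0.69 (SE 0.34). The fatty acid transport protein Slc27a1 had 6.37 and 6.25 with Wnt3A, against 6.06 and 5.39 in controls, a difference of 0.58 (SE 0.30). In both genes the arrays separated narrowly, with control replicate 2 the lowest. Slc27a3 had a wider mean difference of 0.76 (SE 0.86) but overlapped. Of the choline transporter family, Slc44a1 (-0.04, SE 0.33) and Slc44a2 (-0.35, SE 0.40) overlapped, and Slc44a4 (-0.31, SE 0.17) did not.

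All 5 nucleotide sugar carriers of the Slc35a group were described. The UDP-N-acetylglucosamine transporter Slc35a3 had 3.81 and 4.74 with Wnt3A, against 3.75 and 3.65 in controls, a difference of 0.58 (SE 0.36). Slc35a5 differed by 0.72 (SE 0.31) and Slc35a4 by -0.45 (SE 0.21), each with arrays that did not overlap. The CMP-sialic acid transporter Slc35a1 overlapped at 0.14 (SE 0.25).

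Replicates of the same number shared part of their deviation. Replicate 2 was above replicate 1 in both groups for 80 of the 158 solute carriers and below it in both for 25. These counts were not made over all tested genes, so they cannot be read as particular to the solute carriers. Of the 158, 2 genes, Slc7a3 and Slc7a5, were at least 2-fold higher on replicate 2 in both groups, as were 121 of all 9295 tested genes. Slc40a1 and the myo-inositol transporter Slc5a3 were at least 2-fold lower on it in both, as were 66 of all 9295 tested genes, although Slc5a3 had a control mean under the limit. These 4 genes had differences between groups of 0.36 or less in size.

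**Figure D5:**
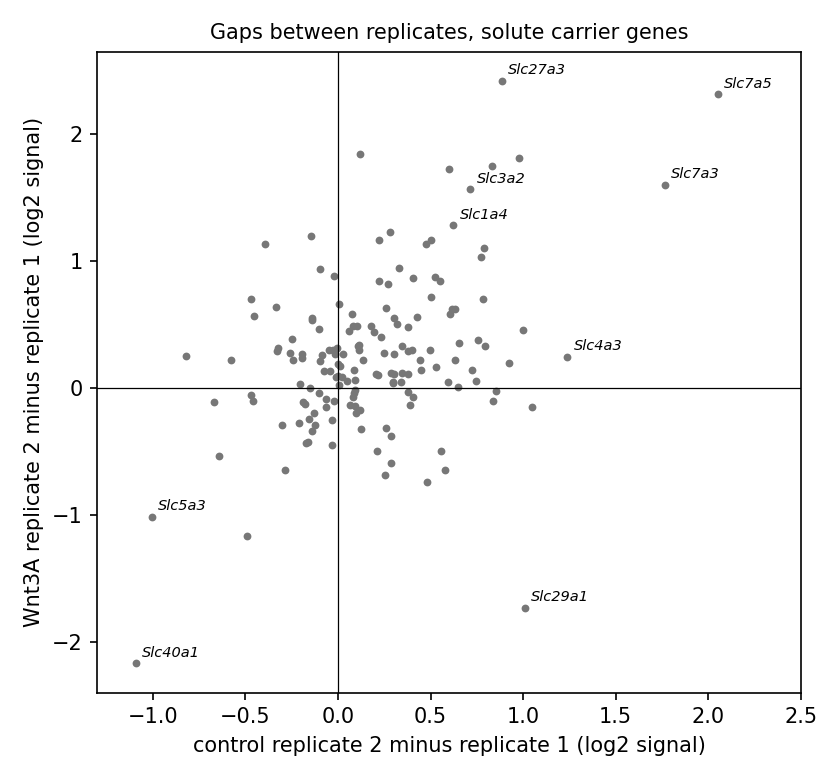
Log2 gap between replicate 2 and replicate 1 in the Wnt3A group (vertical axis) and in the control group (horizontal axis), 1 point for each of 158 solute carrier genes. Points at the upper right and lower left, such as Slc7a5 and Slc40a1, are genes whose replicates of the same number moved alike in both groups, and Slc29a1 at the lower right moved in opposite ways.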

How the data were processed

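RNA of C2C12 cells in suspension was isolated with Trizol and labelled for Affymetrix arrays, per the labels' protocols. For each array the authors deposited a value per probe set, 22690 in all, read here as log2 signal from the values, since the base is not stated; another base would rescale every difference. Per the submitters' processing notes, the tools were GCOS and PLIER (versions not stated). Normalization and scan batches were not given in the sources used here, and the deposited columns have medians of 4.22 and 4.15 (Wnt3A) and 4.19 and 4.20 (control). There are no detection calls, so dim genes were judged by signal, and with 2 arrays a group precision is low.

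Symbols came from the platform annotation (20380 probe sets outside the controls with 1 symbol, 20351 matched by Entrez ID to RefSeq of GRCm38.p6). Probe sets naming several genes were left out, which removed 2 solute carriers. Levels of different genes were not compared, apart from the sums over marker lists, in which bright genes weigh most. Tests used limma 3.58.1 in R 4.3.3 (lmFit, eBayes with an intensity trend, two-sided, group only, 4.68 degrees of freedom), adjusted over 9295 genes, and were tested on simulated data. SE and 95% intervals are those of that fit.

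Named genes were up to 10 per direction at least 2-fold apart on non-overlapping arrays, up to 3 such separated genes of widest difference and the one of highest mean per class of at least 5, and 22 set names, of which 21 were described and the other is not reported here. Slc7a3, Slc7a4, Slc7a6, Slc1a4, Slc15a3, Slc15a4, Slc66a1, Slc29a3, Slc12a4, Slc12a7, Slc25a33, Slc25a46, Slc25a51, Slc27a3, Slc5a3, Slc25a38, Slc44a2, Bsg, Csf1r, Cd68, Krt19, Mbp, Myod1 and Myf5 were added after their values were seen. The markers Krt8, Kdr, Cldn5 and Lpl and the subunits Atp1b2 and Atp1b3 were also picked out after their values were seen. The values of these under the alternatives are not given. Emb, Atp1b1, Slc9a3r1 and Stk39 were named as the partner genes of lowest unadjusted p in their list. Members, classes, lists and motifs were chosen with earlier results of these data known. Alternatives varied the scaling, the filter, the probe set rule, the variance model, the block and the replicates.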

Additional observations from a re-analysis of the deposited data

How the results depend on the processing

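Quantile normalization, median centring and eBayes without the trend turned the difference of no named gene and brought none past the threshold. They gave 10 to 12 solute carriers at an unadjusted p under 0.05, and 13 of 25 metal carriers were higher, in place of 12, under quantile normalization and median centring. Of the 9 genes at least 2-fold apart, Slc1a3, Slc7a7, Slc16a11 and Slc29a1 remained so under every alternative that tested them. No solute carrier passed an adjusted p of 0.05 in the fit as reported or without any 1 replicate. Under hybridization control scaling 2 did, Slc1a3 at -3.23 and Slc7a7 at 2.11, with 49 of all genes. The labels do not say that replicate numbers mark shared cultures. Same-numbered arrays deviated from their group means together, with a correlation of 0.478 over the tested genes. By limma with the replicate block 83 genes passed, among them 2 solute carriers, Slc1a3 (adjusted p = 0.0035) and Slc8a1 (adjusted p = 0.0303), and Emb passed as well. The block changed no other call of a named gene. With the dimmer 50% of the genes left out, 4 solute carriers had an unadjusted p under 0.05 in place of 12, 1 was at least 2-fold higher in place of 3 and 2 were lower in place of 6, fewer genes being tested (5.66%, 1.39% and 2.08% of all tested genes). Under hybridization control scaling 9 were at least 2-fold higher and 4 lower (3.49% and 1.16% of all tested genes). Leaving out 1 replicate gave 7 to 26 at an unadjusted p under 0.05 and 2 to 18 at least 2-fold higher.

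Hybridization control scaling moved the median of all solute carriers to 0.34, beside a median of 0.30 over all genes. Class medians became 0.43 (amino acids), 0.30 (inorganic ions), 0.46 (neurotransmitters and organic ions), 0.28 (mitochondrial) and 0.31 (metals). Those of the other classes became 0.41 (sugars), 0.28 (lipids), 0.31 (vitamins), 0.63 (monocarboxylates) and 0.46 (nucleotide sugars). Without the dimmer 50% the medians were 0.34 for sugars, 0.52 for vitamins and -0.73 for monocarboxylates, each on fewer genes. The vitamin and monocarboxylate classes then held fewer than 5 genes, and only Slc16a1 and Slc16a11 remained of the monocarboxylate carriers. Without a filter the median was 0.02 for neurotransmitters and organic ions, with more genes in the class. Without 1 replicate they ran from -0.12 to 0.25 for amino acids, -0.03 to 0.14 for neurotransmitters and organic ions, -0.09 to 0.10 for sugars, -0.14 to 0.07 for vitamins, -0.30 to 0.15 for inorganic ions, -0.06 to 0.34 for nucleotide sugars, -0.07 to 0.19 for metals, -0.13 to 0.20 for lipids, -0.05 to -0.02 for mitochondrial carriers, 0.13 to 0.32 for monocarboxylates and -0.06 to 0.11 for all solute carriers.

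Under hybridization control scaling the sign turned for Slc12a2 (0.11), Slc12a4 (0.05), Slc12a7 (0.16), Slc23a1 (0.22), Slc25a4 (0.08), Slc25a38 (0.24), Slc29a3 (0.03), Slc2a4 (0.28), Slc39a14 (0.18), Slc40a1 (0.04), Slc44a1 (0.28), Slc44a4 (0.01) and Slc46a1 (0.03), and with probe sets averaged for Slc7a6 (-0.09). Leaving out 1 replicate turned the sign of genes with overlapping arrays, with these ranges: Slc12a2 -0.56 to 0.15, Slc12a4 -0.64 to 0.09, Slc12a7 -0.44 to 0.12, Slc16a1 -0.15 to 1.01, Slc1a4 -0.16 to 1.12, Slc22a5 -0.17 to 0.41, Slc25a4 -0.49 to 0.01, Slc27a3 -0.45 to 1.97, Slc2a1 -0.20 to 1.0, Slc2a4 -0.09 to 0.01, Slc35a1 -0.06 to 0.34, Slc39a14 -0.52 to 0.24, Slc39a6 -0.07 to 0.77, Slc3a2 -0.58 to 0.98, Slc40a1 -1.36 to 0.80, Slc44a1 -0.41 to 0.33, Slc44a2 -0.86 to 0.15, Slc5a3 -0.18 to 0.83, Slc6a6 -0.10 to 0.53, Slc7a3 -0.56 to 1.21, Slc7a4 -0.10 to 0.49, Slc7a5 -0.79 to 1.52, Slc7a6 -0.10 to 0.19, Bsg -0.17 to 1.01 and Krt19 -0.21 to 2.13. A lone array left in a group is assumed to vary like the other group. Of the 52 described genes with several probe sets above the limit, 18 had probe sets of opposite sign.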

Other observations

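Carriers whose symbols follow other patterns were outside the rule. Of 50 such genes on the array, 32 were tested, with a median of -0.004, 15 higher and 17 lower with Wnt3A. The organic anion transporter family member Slco5a1 was at least 2-fold higher, with a difference of 1.26 (adjusted p = 0.755 by limma), and the others differed by less.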
